A study of Drosophila melanogaster with 2 samples.

Results

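Peaks called in replicate 1 and absent from the replicate 2 list made up 685 of the 2214 replicate 1 peaks on the chromosome arms, or 30.9% (exact 95% interval 29.0 to 32.9%). They came from chromatin immunoprecipitation followed by sequencing (ChIP-seq) of 0 to 24 h old Drosophila melanogaster embryos of a transgenic line that carries tna fused to eGFP. Whole embryos were used, with an anti-GFP antibody. The 2 samples were labelled biological replicates 1 and 2 of this single group, and chromatin was sonicated to 200 to 800 bp. The labels name a control library, but no untagged or input control was analysed here. No background measured in control embryos therefore stands beside any value, and a pool of all embryonic stages and tissues gives no cell type. A peak was a member when it overlapped no replicate 2 listed peak by 1 bp or more, and the other 1529 replicate 1 peaks are called shared. Membership was therefore chosen by measured values, and every value of signal, rank or replicate 2 match below is a description of that choice. The opposite set, peaks listed in replicate 2 only, held 1147 of 2669 peaks.

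The tonalli gene, tna, codes for a protein with an SP-RING domain, as in ligases of the small protein SUMO, and interacts genetically with Brahma, a complex that remodels chromatin. In ChIP-seq, a peak is a stretch where immunoprecipitated fragments pile up, and its summit is the position of the maximum. How well the rank of a peak repeats in a pair of lists is scored by the irreproducible discovery rate (IDR), and every listed peak had an IDR of at most 0.01, a −log10 value of 2.00 or more. A ranked list also holds the peaks that miss this limit. Some ranked peaks passed the limit and were still not listed, 67 in replicate 1 and 122 in replicate 2, and no member overlapped any of those 122. Many promoters of broadly expressed fly genes carry the DNA replication-related element (DRE), bound by DREF, which holds the pentamer CGATA in its core, or Motif 1, while other promoters use a TATA box or an Initiator.

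The windows around strong members on some of the chromosome arms show the letters these results turn on. The first 3 belong to members that overlapped a ranked replicate 2 peak, and the last 4 to members that overlapped none. Each reaches up to 100 bp either side of the summit in the dm6 build of RefSeq and stops where an annotated UTR begins. IntS4, whose summit lay in a UTR of the neighbouring CG12112, is not printed, and neither are mi and sxc, which lie on an arm left out here. Capitals mark CGATA (alone or inside a DRE), Motif 1 and the TATA box on either strand.
dome, chrX:19683520-19683720, + strand: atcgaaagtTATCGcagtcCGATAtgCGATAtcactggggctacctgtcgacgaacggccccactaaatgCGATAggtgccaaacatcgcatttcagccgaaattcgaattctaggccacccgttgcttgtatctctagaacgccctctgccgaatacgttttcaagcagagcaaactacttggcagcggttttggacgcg
CG18749, chr3R:8243831-8244031, + strand: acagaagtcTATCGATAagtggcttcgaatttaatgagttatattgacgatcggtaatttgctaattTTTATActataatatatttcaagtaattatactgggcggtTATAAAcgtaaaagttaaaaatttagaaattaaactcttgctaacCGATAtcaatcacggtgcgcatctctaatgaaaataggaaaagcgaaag
CG11755, chr3R:8676723-8676914, + strand: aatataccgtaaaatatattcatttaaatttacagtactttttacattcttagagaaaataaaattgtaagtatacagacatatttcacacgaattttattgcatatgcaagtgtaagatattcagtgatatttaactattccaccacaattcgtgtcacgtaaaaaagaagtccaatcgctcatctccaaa
Ptpmeg, chr3L:347135-347335, + strand: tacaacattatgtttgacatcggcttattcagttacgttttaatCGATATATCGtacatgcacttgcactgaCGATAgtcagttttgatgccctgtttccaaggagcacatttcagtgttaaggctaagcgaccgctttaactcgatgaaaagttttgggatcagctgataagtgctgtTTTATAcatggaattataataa
PolA1, chr3R:21671751-21671912, + strand: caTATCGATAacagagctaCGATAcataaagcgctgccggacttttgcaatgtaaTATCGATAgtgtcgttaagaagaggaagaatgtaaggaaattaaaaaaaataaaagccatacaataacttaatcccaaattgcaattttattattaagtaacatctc
CG11263, chr3L:13006599-13006799, + strand: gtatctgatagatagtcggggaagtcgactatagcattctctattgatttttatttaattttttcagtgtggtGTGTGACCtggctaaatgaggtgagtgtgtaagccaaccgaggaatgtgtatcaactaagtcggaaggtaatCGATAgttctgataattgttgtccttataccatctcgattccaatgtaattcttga
l(3)73Ah, chr3L:16588357-16588474, + strand: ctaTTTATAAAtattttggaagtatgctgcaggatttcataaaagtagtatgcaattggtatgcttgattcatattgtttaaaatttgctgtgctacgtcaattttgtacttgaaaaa
The dome window held 4 CGATA matches. That of PolA1 held 2 complete DREs, and that of CG11263 a Motif 1 match with 1 CGATA. The CG11755 window held none of the capitalised motifs.

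Members were the weaker peaks of the replicate 1 list. The signal, the authors' own value for a peak, had a median of 70.8 among members (quartiles 58.7 and 90.1, range 2.16 to 321) and of 119 among shared peaks (quartiles 83.2 and 181, range 2.12 to 836). Only 125 members (18.2%) lay above the list's median of 98.6. By decile of the list, members were 0.901% of the strongest (2 of 222 peaks), 19.9% of the fifth and 71.5% of the ninth (158 of 221). The share was 43.7% in the weakest decile, below that of the decile above it. Members and shared peaks both reached low values: 43 members and 86 shared peaks had a signal under 20. Of those 43 members, 41 overlapped another replicate 1 peak. In all, 116 members overlapped another member and 5 overlapped a shared peak. A width of 364 bp was listed for 664 members (96.9%) and 939 shared peaks (61.4%). The deposited q-value was at most 0.05 for 381 members and 1303 shared peaks.

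**Figure D1:**
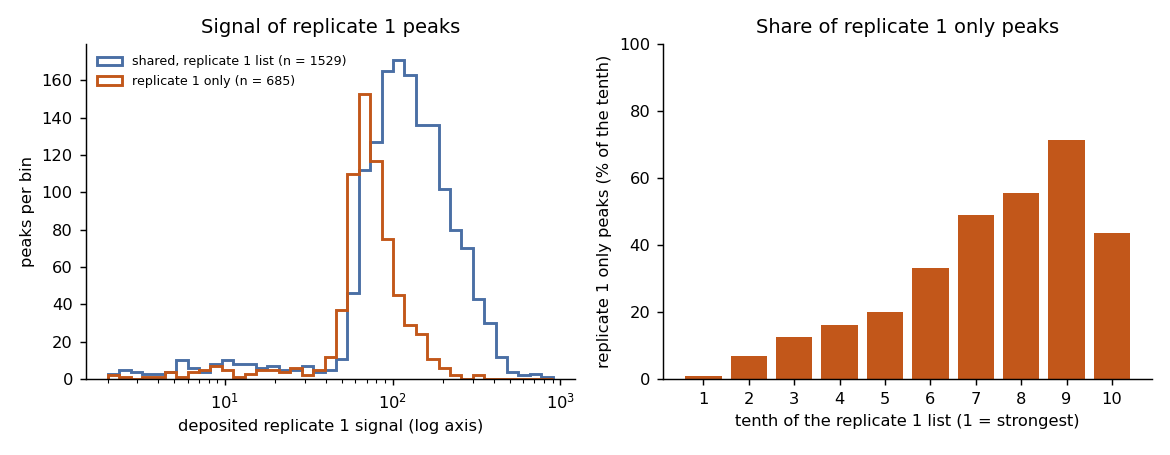
Left, the number of replicate 1 peaks per bin of the deposited signal (log axis) for the 685 replicate 1 only and the 1529 shared peaks. Right, bars give the percentage of replicate 1 only peaks in each decile of the list, from 0.901% in the strongest to 71.5% in the ninth.

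Most members overlapped a peak in replicate 2's longer ranked list. A ranked replicate 2 peak overlapped 641 of the 685 (93.6%, interval 91.5 to 95.3%), and 44 (6.42%) overlapped none. The ranked list is long, with 109712 peaks over 25.7% of the arms, so much of this overlap has a background. Windows of the same size 2000 bp to either side of the members overlapped a ranked peak in 75.3% and 75.8% of cases, and windows 5000 bp away in 70.5% and 69.8%. Among 364 bp windows at 19275 protein-coding starts the share was 72.6%, and at the 15876 starts free of any listed peak it was 66.9%. Summits coincided less often than intervals, with a ranked replicate 2 summit within 100 bp at 75.0% of members.

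The replicate 2 peaks under the members were high in their ranked list yet missed its limit. The strongest overlapping ranked peak had a median replicate 2 signal of 51.6 (range 7.07 to 139), at a median percentile of 94.9 of that list, and the median distance between the paired summits was 46 bp. The best replicate 2 IDR was at most 0.05 for 211 members (30.8%), at most 0.1 for 290 (42.3%) and at most 0.2 for 355 (51.8%). The members closest to the limit were 2 peaks in an intron of CG33144 that overlapped each other (replicate 1 signals 83.3 and 19.0). Both overlapped the same replicate 2 peak, of signal 68.4 at a −log10 IDR of 1.999. Larp7, which encodes a La-related protein, followed at 1.997, then CG12128 at 1.994 and Rad60, which encodes a protein with SUMO-like domains, at 1.990. The lowest replicate 1 −log10 IDR of a member was 2.00.

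Position gave a second boundary. The members nearest to a replicate 2 peak were at Ptpmeg, ATP8A, l(3)73Ah, ctp and CG1847, with gaps of 8, 10, 12, 15 and 20 bp. The summit inside ATP8A, of a peak with replicate 1 signal 2.58, lay 2 bp from the start of tRNA:Ile-AAT-1-5. The shared peaks with the smallest overlaps were at Vps8, near CG13857, at CG4554 and at RpS29, each with 13 bp, and at Adf1 with 17 bp. Their summits lay between 200 and 243 bp from that of the strongest replicate 2 ranked peak under them. The summit near CG13857 was 142 bp from the start of tRNA:Ser-GCT-2-5.

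**Figure D2:**
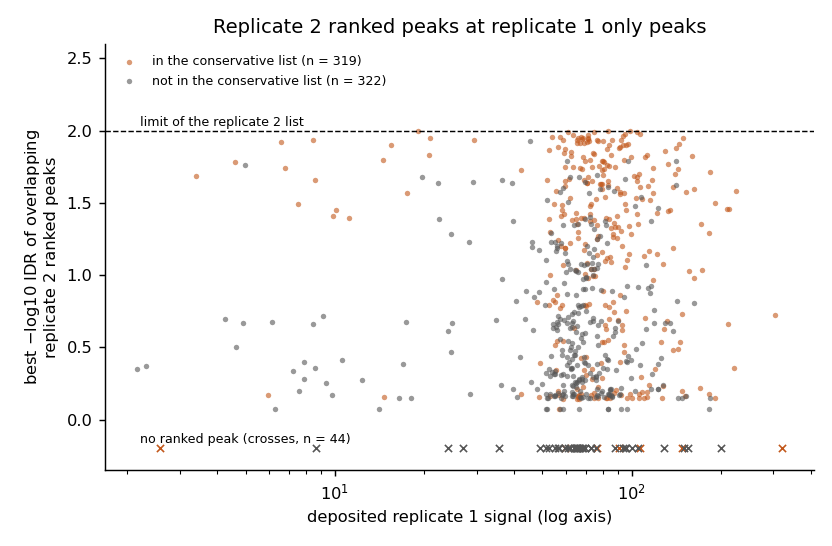
Each point is a replicate 1 only peak, with its deposited replicate 1 signal (log axis) against the best −log10 IDR among replicate 2 ranked peaks overlapping it; the 44 without one are crosses under the points. The dashed line is the limit of the replicate 2 list at 2, and members of the conservative list are coloured.

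Lists made from both replicates took up many members. The conservative list overlapped 326 (47.6%, interval 43.8 to 51.4%), against 1502 of the 1529 shared peaks (98.2%). The other list from both replicates overlapped 512 (74.7%) against 1513 (99.0%). In neither were 158 members (23.1%), of which 29 also had no ranked replicate 2 peak, 4.23% of all members. Members in the conservative list had a median replicate 1 signal of 79.6 and the others one of 65.4. By quartile of member signal, the conservative list held 66.1% of the strongest, 55.6% and 36.3% of the middle quartiles and 32.6% of the weakest. Overlap with a ranked replicate 2 peak showed no such order, at 92.4%, 97.1%, 91.2% and 93.6%.

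The strongest member lay at Ptpmeg, which encodes a non-receptor tyrosine phosphatase. This peak, chr3L:347137-347351, had a replicate 1 signal of 321, and its summit was 224 bp upstream of a start. It overlapped a shared replicate 1 peak of the same gene (chr3L:347327-347481, signal 120), and the replicate 2 peak 8 bp from it had a replicate 2 signal of 151. A peak of the conservative list overlapped it by 1 bp or more, and the listed replicate 2 peak stood beside this interval and not in it. Signals of the replicates are not on a stated common scale, and each is given for itself.

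The 6 members with the next highest signals had summits within 145 bp of a start, 5 of them upstream and that of CG13742 40 bp downstream. At mi the replicate 1 signal was 305 and the replicate 2 ranked signal 97.6. IntS4, which encodes a subunit of the Integrator complex that processes small nuclear RNAs, had 224 and 77.0. At dome, which encodes the receptor of the JAK/STAT pathway, the values were 222 and 93.8. CG18749 had 212 and 105, CG11755 had 210 and 56.8, and CG13742 had 210 and 66.5. Each of these 6 peaks was in the conservative list, with a replicate 2 −log10 IDR between 0.358 at dome and 1.59 at IntS4. Further down, a peak of 191 at pad also lay within 500 bp of a start of SF2, which encodes a splicing factor, and EMC1, a subunit of the endoplasmic reticulum membrane complex, had 183. PolA1 (200), with no ranked replicate 2 peak, was also among the strongest 15. The remaining peaks of the 15 were at CG12118 (190), l(2)k01209 (184), CG3740 (184), ssx (182) and the start of tRNA:Arg-ACG-1-4 (182). At ssx, which encodes an RNA-binding relative of Sex-lethal, the replicate 2 signal of 139 was the highest under any member. That replicate 2 peak nevertheless had a −log10 IDR of only 0.180.

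Some strong members overlapped no ranked replicate 2 peak. The summit at PolA1, the gene of the catalytic subunit of DNA polymerase alpha, lay 62 bp upstream of the start (chr3R:21671739-21671865). It had a replicate 1 signal of 200, no ranked replicate 2 peak, and no overlap with either list from both replicates. CG11263 (155) and an intronic peak of sxc (150), which encodes the O-GlcNAc transferase, showed the same combination. The l(3)73Ah peak (148) had no ranked overlap either, but a listed replicate 2 peak lay 12 bp away. A peak of the conservative list overlapped the l(3)73Ah peak. The other peaks of the strongest 10 in this class lay between genes near mRpS5 (129), Hml (105), toe (100) and dls (95.9), and in an intron of CG13229 (106). Of all 44, 7 were in the conservative list and 13 in the other list from both. Their median replicate 1 signal was 66.5, against 71.0 for members with a ranked peak.

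Members were less often at gene starts than shared peaks. Within 500 bp of a transcription start site (TSS) lay 487 member summits (71.1%, interval 67.5 to 74.5%) and 1429 shared summits (93.5%, 92.1 to 94.6%). The odds ratio was 0.173, with a Benjamini-Hochberg adjusted p of 2.36e-41 over 7 location classes by two-sided Fisher's exact test. Signal moved with location, as TSS-proximal members had a median signal of 73.9 and the others one of 65.3. Among peaks below the list's median signal the shares were still 67.3% (377 of 560) and 92.3% (505 of 547), an odds ratio of 0.173. The p-values here count peaks, which are not independent replicates, and describe these 2 libraries rather than embryos.

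Introns, intergenic DNA and coding exons held larger shares of the members. Introns held 106 members (15.5%) and 55 shared peaks (3.60%), with an adjusted Fisher p of 1.39e-20. Intergenic DNA held 50 (7.30%) and 32 (2.09%), with an adjusted p of 2.34e-08. Coding exons held 28 (4.09%) and 4 (0.262%), an odds ratio of 14.7 with an adjusted p of 7.84e-11. Sites in 5′ UTRs away from starts held 4 members and 0 shared peaks (adjusted p = 0.0128, Fisher's exact test). For 3′ UTRs, with 9 of each, the exact test was not passed (adjusted p = 0.141), nor for noncoding exons, with 1 and 0 (0.309).

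**Figure D3:**
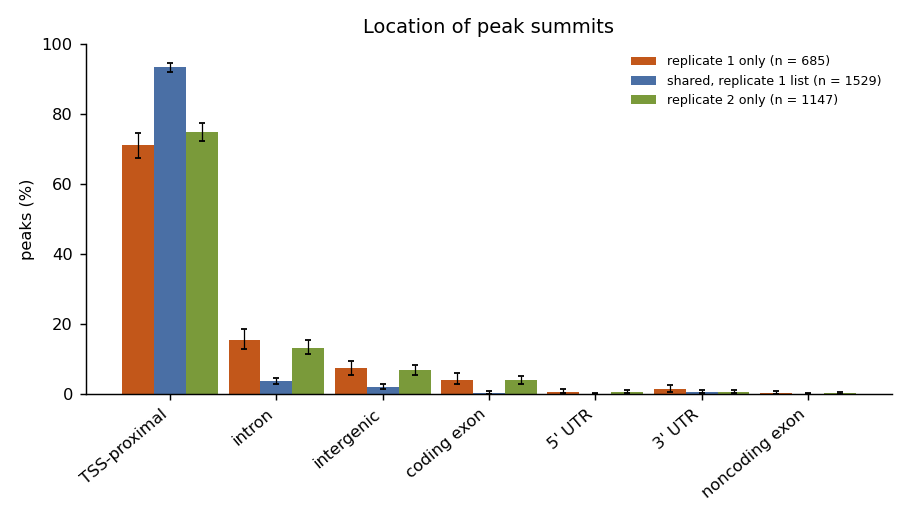
Bars give the percentage of peaks whose summit falls in each location class, with exact 95% intervals, for replicate 1 only, shared and replicate 2 only peaks. TSS-proximal summits are 71.1% of replicate 1 only peaks, 93.5% of shared peaks and 75.0% of replicate 2 only peaks.

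The strongest intronic member was in PRAS40 (chr2R:14485505-14485630, signal 162), followed by CG31688 (156), sxc (150) and RasGAP1 (141), which encodes a negative regulator of Ras signalling. Pgd, a gene of the pentose phosphate pathway, had 111. A peak of 105 lay in an intron of trh, which encodes a tracheal transcription factor, one of 94.5 in the planar polarity gene pk and one of 93.5 in the homeotic gene Ubx. The Ubx peak had no ranked replicate 2 overlap, whereas those in trh and pk overlapped ranked peaks of 66.2 and 59.0 and were in the conservative list. These genes were named after their values were seen.

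Coding exons gave weaker members. Their median signal was 55.2, only 4 of the 28 were in the conservative list, and the median GC content around their summits was 57.2%. The highest was in the insulin receptor gene InR (80.5), where a second member of 4.59 overlapped it in an annotated 5′ UTR. CG32109 had 72.1, PCNA2 had 69.7, and Su(var)3-7, which encodes a heterochromatin protein, had 63.6. None of the 28 windows held a DRE and 3 held CGATA. Intergenic members were stronger, with a median of 71.1; they included a peak of 104 near RYBP, whose protein associates with Polycomb complexes, with a replicate 2 −log10 IDR of 1.99, and one of 97.3 near chinmo, which encodes a BTB zinc-finger protein. As with introns, these examples were picked after their values were seen.

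Overlap with a ranked replicate 2 peak went with location. Of the 44 members without one, 17 (38.6%) were TSS-proximal, against 470 of the 641 with one (73.3%). Seen the other way, a ranked peak overlapped 96.5% of TSS-proximal members and 86.4% of the rest. The conservative list held 51.3% of TSS-proximal, 48.1% of intronic, 26.0% of intergenic and 14.3% of coding-exon members. No test was made of these splits, as the replicate 2 lists defined the members.

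At protein-coding starts, member summits spread more widely than shared ones. Of 458 members within 500 bp of such a start, 292 (63.8%) were within 100 bp, against 1069 of 1332 shared peaks (80.3%). The median position was 38 bp upstream for members (quartiles 100 bp upstream and 24.8 bp downstream) and 33 bp upstream for shared peaks (66 and 0.75 bp upstream). Another 29 TSS-proximal members were near the start of a noncoding gene and of no protein-coding one. A tRNA gene had the nearest start for 21 members (3.07%, interval 1.91 to 4.65%), 88 shared peaks (5.76%, 4.64 to 7.04%) and 13 replicate 2 only peaks (1.13%, 0.605 to 1.93%). This count was made after the values were seen and was not tested.

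Sequence separated members from shared peaks in 4 of 15 motifs. Windows reaching 100 bp from the summit were searched on both strands. DRE (TATCGATA) was in 127 member windows (18.5%, interval 15.7 to 21.7%) and 462 shared windows (30.2%, 27.9 to 32.6%), for an odds ratio of 0.527 (adjusted Fisher p = 3.80e-08 over the 15 motifs). CGATA, which every DRE contains, was in 392 (57.2%) and 1205 (78.8%), for an odds ratio of 0.360 (adjusted Fisher p = 1.62e-23). Both shares were above those of the surroundings, as windows of equal width 1000 bp to either side of members held a DRE in 0.438% of cases and CGATA in 20.7%. At all 19275 protein-coding starts, windows of the same length held them in 6.44% and 37.1%. The median distance from summit to DRE was 34.5 bp among members with one and 24.5 bp among shared peaks, and for CGATA it was 26 and 13 bp.

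Peak strength moved with these shares. From the strongest to the weakest quartile of members, the DRE share was 29.2%, 21.6%, 15.2% and 8.14%, and the CGATA share 76.6%, 64.3%, 50.9% and 37.2%. Below the list's median signal, DRE was in 16.3% of members and 21.2% of shared peaks and no longer passed (odds ratio 0.722, adjusted Fisher p = 0.187), while CGATA was in 52.5% and 66.2% and still passed (adjusted p = 6.48e-05). With log2 signal as a covariate in logistic regression over all 2214 peaks, both passed. The odds ratios were then 0.708 for DRE, with an adjusted Wald p of 0.0223, and 0.497 for CGATA, with one of 5.75e-10. Location moved with them as well, and among TSS-proximal peaks alone the DRE shares were 23.2% and 31.5% (adjusted Fisher p = 0.00404) and the CGATA shares 68.2% and 81.2% (7.46e-08).

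The other 2 differences passed by less. Motif 1 (GGTCACAC) was in 23 members (3.36%) and 96 shared peaks (6.28%), for an odds ratio of 0.527 (adjusted Fisher p = 0.0211). Its share was 5.68% at all protein-coding starts. The call was lost in 5 alternatives. Among TSS-proximal peaks alone the odds ratio was 0.675 (adjusted Fisher p = 0.301), at a q-value of at most 0.05 it was 0.581 (adjusted Fisher p = 0.153), and with log2 signal as a covariate 0.562 (adjusted Wald p = 0.0742). In windows reaching 50 bp the adjusted Fisher p was 0.112, and in those reaching 200 bp the odds ratio was 0.746 (adjusted Fisher p = 0.319). The TATA box (TATAAA) was in 185 members (27.0%) and 335 shared peaks (21.9%), an odds ratio of 1.32 with an adjusted p of 0.0403, beside 26.9% at all protein-coding starts. In windows reaching 200 bp its odds ratio turned to 0.867 (adjusted Fisher p = 0.319). It was 1.16 below the median signal (adjusted Fisher p = 0.753) and 1.26 with GC content as a covariate (adjusted Wald p = 0.120).

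The remaining 11 motifs did not pass. They were the motif of GAGA factor (GAGAG), the Pho motif (GCCATNTT) of a Polycomb-recruiting protein, the Initiator (TCAGT) and the palindrome CACGTG. The second palindrome was CAGCTG, and Zelda (CAGGTAG) is the motif of an early embryonic activator. The motif of GATA factors (AGATAA), the homeodomain motif (TAATTA), the CA repeat (CACACACA), the heat shock element (TTCNNGAA) and the AP-1 motif (TGANTCA) completed the set. Their odds ratios ran from 0.543 for CACGTG, with an unadjusted p of 0.0434 and an adjusted one of 0.130, to 1.15 for Initiator. GAGA was in 19.4% of members, 18.7% of shared peaks and 25.0% of all protein-coding starts, and its flanking share for members was 21.5%. Away from starts, GAGA was in 55 of 198 members (27.8%), DRE in 14 (7.07%) and CGATA in 60 (30.3%).

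**Figure D4:**
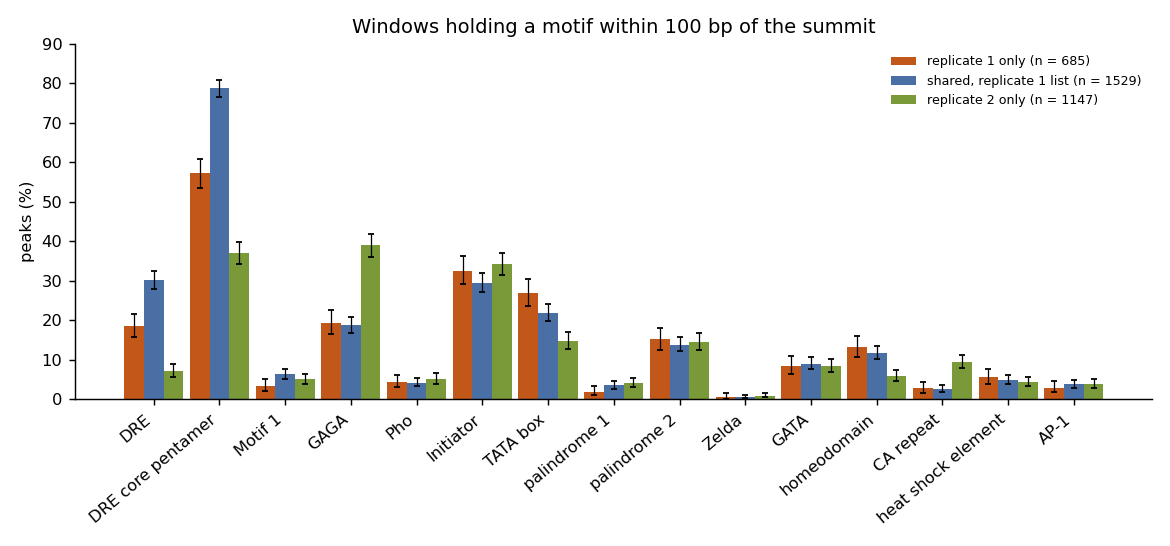
Bars give the percentage of windows, reaching 100 bp from the summit, that hold each of 15 motifs on either strand, with exact 95% intervals, for the same 3 sets of peaks; palindromes 1 and 2 are CACGTG and, in that order, CAGCTG. The DRE core pentamer (CGATA) is in 57.2% of replicate 1 only, 78.8% of shared and 37.0% of replicate 2 only windows, and GAGA in 19.4%, 18.7% and 39.0%.

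Against replicate 2 only peaks, members differed in sequence, and no location class passed. This comparison was added after the data were seen. TSS-proximal shares were 71.1% (interval 67.5 to 74.5%) and 75.0% (72.4 to 77.5%), for an odds ratio of 0.821 (adjusted Fisher p = 0.366). In sequence, 7 of 15 motifs passed. CGATA was in 57.2% of members and 37.0% of replicate 2 only peaks (odds ratio 2.28, adjusted Fisher p = 2.54e-16), and DRE in 18.5% and 7.15% (2.95, 1.90e-12). GAGA went the other way, with 19.4% and 39.0% (0.378, 1.03e-17), as did the CA repeat with 2.77% and 9.42% (0.280, 3.48e-08) and CACGTG with 1.90% and 4.01% (0.476, 0.0289). The TATA box was in 27.0% and 14.7% (2.14, 8.81e-10), and the homeodomain motif in 13.1% and 5.84% (2.43, 3.95e-07).

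Base composition differed between the replicates' own peaks. The median GC content of the 201 bp around a summit was 39.3% for members (quartiles 34.3 and 45.8%) and 47.3% for replicate 2 only peaks (41.8 and 52.3%). Shared peaks lay together, at 40.3% by replicate 1 summits and 40.8% by replicate 2 summits. With GC content as a covariate in logistic regression, 4 motifs passed between members and replicate 2 only peaks. CGATA stayed higher in members, at an odds ratio of 1.37 with an adjusted Wald p of 0.0174. Lower were GAGA (0.532, 2.82e-06), the CA repeat (0.371, 0.00106) and Motif 1 (0.443, 0.0167). DRE (1.27, 0.360), the TATA box (1.15, 0.409), the homeodomain motif (1.24, 0.399) and CACGTG (0.459, 0.0636) no longer passed. Each side is 1 library, so replicate and library cannot be told apart here.

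**Figure D5:**
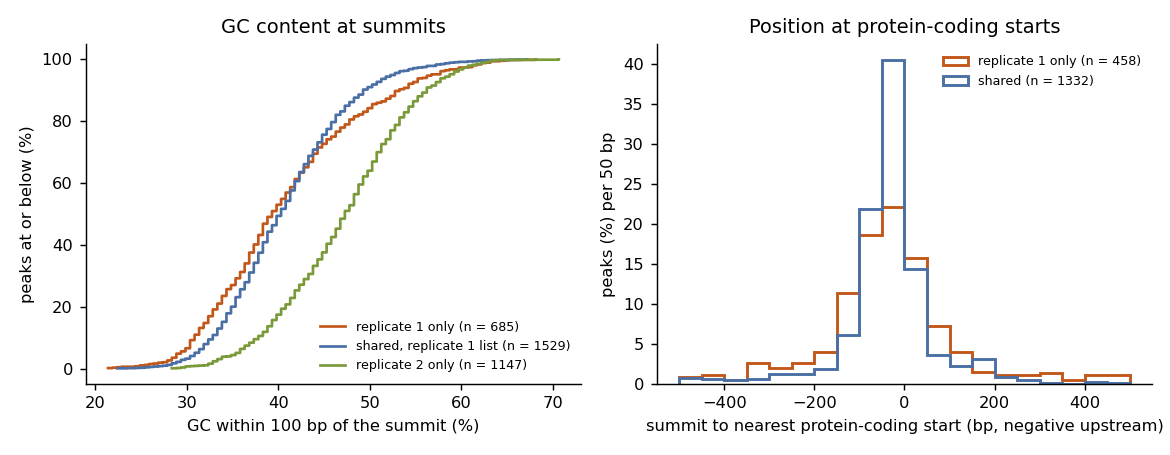
Left, the cumulative percentage of peaks by GC content of the 201 bp around the summit, with medians of 39.3% for replicate 1 only, 40.3% for shared and 47.3% for replicate 2 only peaks. Right, the percentage of peaks per 50 bp of distance between the summit and the nearest protein-coding start, for the 458 replicate 1 only and 1332 shared peaks within 500 bp of one.

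Chromosome arms separated members from shared peaks in no case. The lowest unadjusted p among 6 arms was 0.0134, for 3L with 150 members (21.9%) and 266 shared peaks (17.4%), and it was the single one under 0.05; its adjusted Fisher p was 0.0806. Against replicate 2 only peaks, X held more of the members (18.1% and 10.2%, adjusted Fisher p = 1.27e-05) and 2R fewer (20.3% and 25.5%, 0.0367). Shared peaks had 19.3% on X.

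Starts of 638 protein-coding genes lay within 500 bp of a member summit, 4.57% of the 13968 on the arms, and any replicate 1 summit was at 2297 genes (16.4%). At 590 of the 638, no replicate 2 listed summit lay at a start, while 48 had one, and 27 also had a shared replicate 1 summit. More than 1 member summit lay at 57 of these genes. A summit near the starts of several genes was counted for each of them. Counting only the gene with the nearest start gave 434 genes. Counts in gene lists take only members within 500 bp of a start and are given beside the 4.57%. Members elsewhere in or near a listed gene are not in them. They were not tested, as the lists were chosen with earlier results known. Genes with any replicate 1 summit are given as well. Of all 2297 such genes, 638 had a member.

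The ribosomal protein and splicing lists had the most genes with a member at a start. Of 92 cytosolic ribosomal protein genes, 13 (14.1%) had a member at a start, out of 33 with any replicate 1 summit. They included RpS28a (118) and RpS6 (110). No replicate 2 listed summit lay at 12 of the 13, beside 590 of all 638 genes with a member. For mitochondrial ribosomal proteins the count was 7 of 73 (9.59%), out of 20 with any replicate 1 summit. It was led by mRpL37 (115), mRpS14 (110) and mRpS23 (104). Splicing genes had 5 of 28 (17.9%), out of 13 with any replicate 1 summit. Among the 5 were SF2 (191), CG10418 (86.3) and SmD2 (81.5). Translation factors had 0 of 29, although 12 had a replicate 1 summit. The proteasome had 1 of 48, the lid subunit gene Rpn5 (62.6), out of 13 with any replicate 1 summit.

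Each of the chromatin and SUMO lists had between 1 and 3 genes with a member at a start. Any replicate 1 summit was at 11 Trithorax group and Brahma complex, 6 Polycomb group, 8 insulator and 4 SUMO pathway genes. Trithorax group and Brahma complex genes had 3 of 24 (12.5%). They were the Brahma complex genes Bap60 (132) and Bap170 (79.0) and the histone methyltransferase gene ash1 (61.0). The protein-coding starts nearest to the Bap60 and Bap170 summits of these signals were those of CG12096 and Trap1. None of the 3 had a replicate 2 listed summit at a start, as held for 590 of all 638 genes with a member. Polycomb group genes had 1 of 19, ph-p, with members of 104 and 64.7. Insulator proteins had 2 of 13, CTCF (88.4) and BEAF-32 (84.6), and the second also had a shared peak. The SUMO pathway had 2 of 10, cerv (100) and velo (72.8), the second with a replicate 2 summit as well.

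The ecdysone, cell cycle, Notch, segmentation and muscle lists each had 1 or 2 genes with a member at a start. The share was 4.57% among all protein-coding genes. Any replicate 1 summit was at 5, 10, 6, 2 and 3 genes of these lists, in that order. Ecdysone response genes had 2 of 17 (11.8%), usp (113), which encodes the partner of the ecdysone receptor, and the nuclear receptor gene Eip78C (60.3). Cell cycle genes had 2 of 23 (8.70%), the retinoblastoma gene Rbf (86.2) and the mitotic kinase gene polo (80.0). The Notch list had 1 of 17 (5.88%), the presenilin gene Psn with a signal of 52.1. Segmentation had 1 of 21 (4.76%), the Hedgehog receptor gene ptc with 69.6, and muscle 1 of 19 (5.26%), the cardiac regulator tin with 82.9. Neural (20 genes), hemocyte and fat body (15), germline (13) and heat shock (17) lists had 0 genes with a member at a start.

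Some genes carried several members. Counting by name, 51 genes had 2 or more, led in summed signal by Ptpmeg (321 and 54.3), dome (222 and 88.9) and ssx (182 and 67.2). Overlapping peaks were counted separately, so several members of a gene need not be separate sites. Of all 685 members, 116 overlapped another member, among them the ssx peak of 182. CG32425 had 4 members, all intronic, between 81.8 and 2.16, the last overlapping another member. CCHa1-R, which encodes a neuropeptide receptor, had 3 (108, 64.9 and 9.30), and CtsL1, which encodes a cathepsin, had 3 (65.4, 64.2 and 29.4). Next were gus (107 and 81.6), ph-p (104 and 64.7) and Usp10 (137 and 24.1).

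The tagged gene itself held 4 members among its 9 replicate 1 summits. All 4 were intronic, with replicate 1 signals of 56.4, 53.0, 39.4 and 22.3, below the list's median. The first overlapped a ranked replicate 2 peak of signal 60.5 with a summit 3 bp away and a −log10 IDR of 1.24, and the second one of 57.2 at 1.30 with a summit 329 bp away. The last 2 overlapped each other, and their strongest ranked replicate 2 peak was the same, of signal 82.2 at 1.64, with a summit 288 bp from the third and 7 bp from the fourth. The first 2 were in the conservative list, all 4 were in the other list from both replicates, and replicate 2 listed peaks lay between 581 and 1125 bp from them.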

How the data were processed

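Peak lists of 2 biological replicates, labelled as 1 group, were used on the dm6 build. The authors' deposited signal is the peak caller's own value for a peak, and no scaling between lists is stated. Separate deposited −log10 columns were read as the q-value of listed peaks and as the global IDR of ranked ones. The IDR of a listed peak was taken from the same peak in the ranked list. For the aligner and caller, names are not given in the sources used. Read counts are not part of the lists, so depth is unknown and intervals (Clopper-Pearson, 95%) cover counting error only.

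Replicate 1 had 2217 listed peaks, of which 2214 lay on the assembled arms, and replicate 2 had 2669. A replicate 2 counterpart was the overlapping ranked peak of highest signal. Summits were classed with the Ensembl annotation (release 115) on the RefSeq dm6 sequence, a TSS-proximal one within 500 bp of a start, transposable elements and pseudogenes left out. Shares were compared by two-sided Fisher's exact tests (scipy 1.17.1) with Benjamini-Hochberg adjustment within 7 location classes, 6 arms or 15 motifs and a threshold of 0.05. Odds ratios had 0.5 added to each count. Covariates entered logistic regressions (statsmodels 0.14.6), whose p-values are Wald. Scripts were tested on simulated data.

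The members, gene lists and motifs were chosen with earlier results of these data known. Exact motif letters and the noncoding exon class were set once the files were open. The background windows for ranked peaks, the signal limit of 20, the capitalised motifs and the comparison with replicate 2 only peaks were chosen after values were seen. Genes were named by rule: the 15 strongest members, the 10 strongest without a ranked replicate 2 peak, the 5 best counterparts, the 5 smallest gaps and overlaps, up to 3 per gene list by signal, up to 10 genes with several members, and tna. Some members the rule would name are not reported here, and other exceptions are marked in the text. With 2 replicates no test across samples was made. Alternatives covered overlap rules, list limits, TSS and motif windows, signal and GC content.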

Additional observations from a re-analysis of the deposited data

How the results depend on the processing

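The count of 685 members was 395 when replicate 2 ranked peaks at an IDR of at most 0.1 counted as present and 381 among peaks whose q-value was 0.05 or lower. Under the other overlap rules and with 1 peak per overlapping cluster it lay between 624 and 991. The share with a ranked replicate 2 peak was 85.0% when at least 50% of both peaks had to overlap and 75.0% for summits within 100 bp. The share in the conservative list was 43.5% under the same 50% rule and 74.7% in the other list from both replicates. The lower TSS-proximal share held in all 10 alternatives, at odds ratios between 0.170 and 0.299. The number of motifs past the threshold was 2 with windows reaching 200 bp and 2 below the median signal, against 4. The TATA box reversed, to 0.867, in windows reaching 200 bp; the cause was not tested. Motif 1 lost its call in 5 of 10 alternatives (adjusted p between 0.0742 and 0.319), the TATA box also below the median signal (0.753) and with GC content as a covariate (0.120), and DRE below the median signal. CGATA kept its call in all 10. GC content as a covariate and 1 peak per cluster, in the location and motif tests, were chosen after seeing the data. No paired analysis was possible because the 2 replicates form 1 group. Leaving out a replicate was not possible either, since both lists define the members. Unknown depth limits every statement on absence from replicate 2.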
